A study of Mus musculus with 14 samples.

Results

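Aspartic and serine cathepsins and the cystatins were followed as 7 genes chosen by name: the proteases Ctsa, Ctsd, Ctse and Ctsg and the inhibitors Cst3, Cstb and Cst6. All 7 were found among the 55416 genes of the deposited tables. The rule that lists them uses no measured value, but they were chosen with earlier results of these data known. RNA was sequenced from gastrocnemius, a calf muscle, and from lung of male C57BL/6 (C57BL/6NCrlOri) mice aged 6 to 8 weeks, in a model in which cells of a line named KrasIKKaL were delivered through the trachea. The titles mark libraries CON or TB, taken here for control and tumour-bearing, and give 4 groups: muscle with 3 CON and 3 TB libraries, and lung with 3 CON and 5 TB libraries. Neither the treatment of the controls nor the origin of the cell line is stated in the labels. Whether replicate libraries stand for different animals is likewise unstated, and the p-values below therefore rest on a spread between samples that may be technical. Tumour-bearing lung holds RNA of both the host tissue and any tumour, and fewer cells of a type and less RNA per cell cannot be told apart in bulk tissue.

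Cathepsins are proteases, most of which work in the acid interior of lysosomes, and the name covers enzymes of unlike chemistry. Cathepsins D and E cut proteins with a pair of aspartates, cathepsins A and G with a serine, and most others, cathepsin L among them, with a cysteine. Cystatins block cysteine cathepsins, and some of them also legumain, but do not block the aspartic or serine enzymes. In wasting muscle, lysosomal proteolysis works beside the ubiquitin and proteasome pathway, and the title of the series names cathepsin L.

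Total counts ran from 32476194 to 44169410 per muscle library and from 47947363 to 61087315 per lung library. Acta1, skeletal muscle actin, reached 28590 ± 8884 CPM (counts-per-million, here unscaled; SD, n = 3) in control muscle and at most 0.399 in control lung. Sftpc, the surfactant protein of alveolar type 2 cells, was listed at 0 in all muscle libraries. Sftpc had 14870 ± 1296 unscaled CPM in control lung (SD, n = 3) and 220 ± 230 in tumour-bearing lung (SD, n = 5), a group in which cell type markers had shifted widely. Values below are CPM on library sizes scaled by TMM (trimmed mean of M values) within each tissue, for comparing groups, or transcripts-per-million (TPM), which divide by length, for comparing genes.

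In control lung the order of the members per length was Cst3, Ctsd, Cstb, Ctsa and then, far lower, Ctse, Cst6 and Ctsg. Cystatin C led with 1182 ± 59.3 TPM (Cst3, SD, n = 3), cathepsin D followed with 335 ± 5.35, cystatin B with 136 ± 4.63 and cathepsin A with 107 ± 8.87. Each of these 4 was separate from its neighbour in all 3 libraries. Ctse stood at 0.81 ± 0.231 TPM, Cst6 at 0.617 ± 0.199 and Ctsg at 0.35 ± 0.125, and the ranges of Ctse and Cst6 overlapped, as did those of Cst6 and Ctsg. In control muscle Cst3 (349 ± 117 TPM) stood above Ctsd (199 ± 93.9), Cst6 (110 ± 14.8), Ctsa (20.7 ± 4.92) and Cstb (11.3 ± 2.97). The ranges of Cst3 and Ctsd overlapped between libraries, as did those of Ctsd and Cst6, though within each of the 3 libraries the order held. Ctsg was listed at 0 counts in all 6 muscle libraries, and 3 counts, the most a count of 0 allows, amount to 0.0679 to 0.0924 unscaled CPM, a limit that covers counting error only. Ctse had 3 counts over the 3 control muscle libraries.

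**Figure D1:**
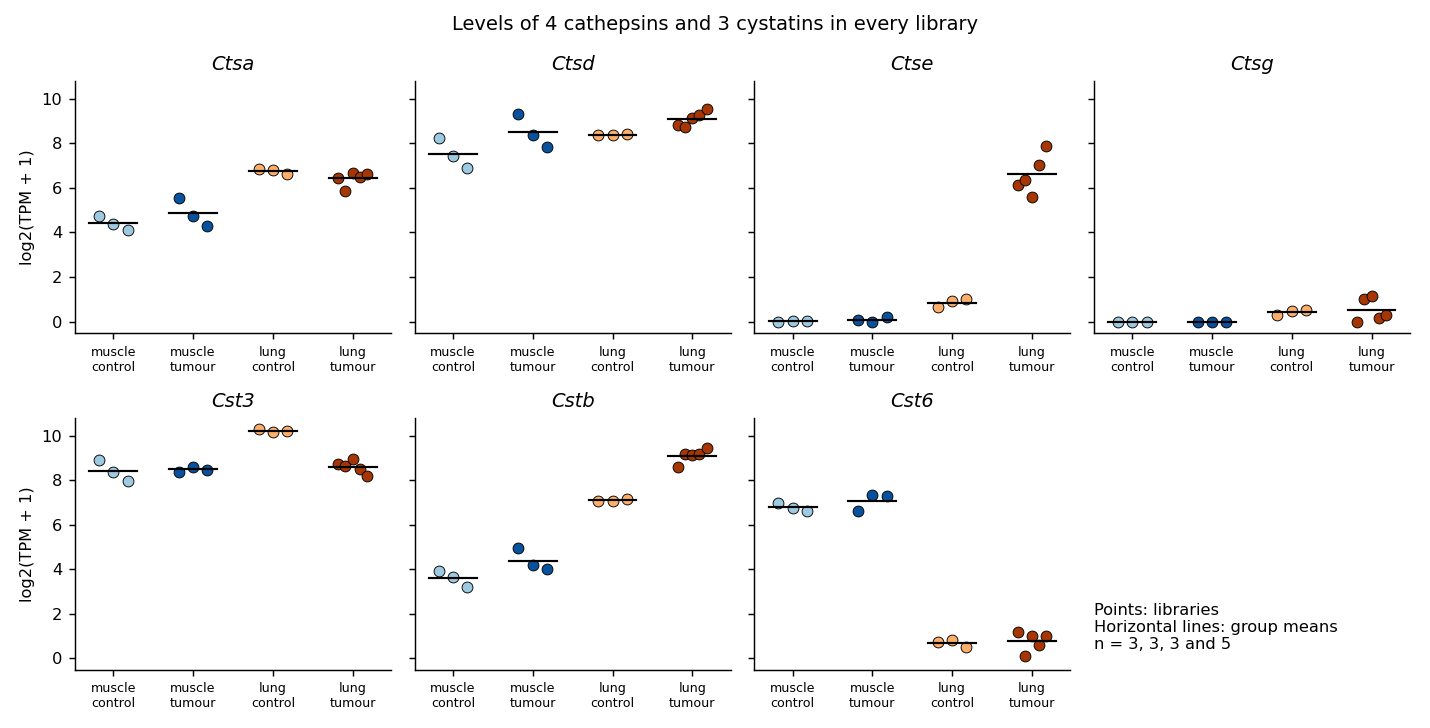
Level of each of the 7 genes as log2(TPM + 1) in muscle and lung, control and tumour-bearing, with libraries as points and group means as horizontal lines (n = 3, 3, 3 and 5). Ctse rose from near the bottom of the axis in control lung to 47.3 to 236 TPM in tumour-bearing lung, and Cst6 was a muscle gene with at most 1.29 TPM in any lung library.

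In tumour-bearing lung, Ctse, Cstb and Ctsd rose and Cst3 fell (4 of 7 members), while Ctsa, Ctsg and Cst6 did not pass. A gene was called at an adjusted p below 0.05 in edgeR's quasi-likelihood test on counts, with Benjamini-Hochberg adjustment over all genes tested in that tissue. Of the 19300 genes tested 59.7% were called in either direction, 30.4% higher and 29.3% lower, so a call by itself sets no member apart in this tissue. All 7 members passed the low-count filter, Ctsg and Cst6 with few counts (0 to 43 and 5 to 23 per library). In muscle 5 of 7 members could be tested, Ctse and Ctsg being too low, and none passed in edgeR. At an unadjusted p below 0.05 there were 3, Ctsd, Cst6 and Cstb, and DESeq2 called 2, Ctsd and Cst6. Of 14373 genes tested in muscle 15.3% were called, 8.53% higher and 6.75% lower. The difference between the tumour effects in the 2 tissues was tested in 1 fit of all 14 libraries, in which 35.6% of 19834 genes passed, 16.6% with a higher and 19% with a lower effect in lung. There Cstb (lung minus muscle 1.81 on the log2 scale, SE 0.30, adjusted p = 0.000451) and Cst3 (-1.14, SE 0.33, adjusted p = 0.0147) passed. Ctsd (0.23, SE 0.37), Ctsa (0.06, SE 0.27), Cst6 (-0.29, SE 0.52) and Ctse (5.05, SE 2.44, adjusted p = 0.122) did not. DESeq2 (5.01, adjusted p = 0.000952) and limma on log2(TPM + 1) (5.68, adjusted p = 2.82e-06) called the difference for Ctse, and adjusted p ran up to 0.495 over its other alternatives. No fold can be given for Ctsg, whose muscle libraries are all at 0.

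Some markers of other cell types shifted in muscle too, where 15.3% of all genes tested were called. Of 5 fibroblast markers 3 fell, Col1a1 (log2 change -5.12), Col1a2 (-4.31) and Thy1 (-3.16). Dcn, the most abundant, had 523.6 and 556.4 CPM (adjusted p = 0.904), and Pdgfra did not pass either (-0.56, adjusted p = 0.172). The list sums overlapped, at 629 to 1481 CPM in control and 348 to 980 CPM in tumour-bearing libraries. All 3 alveolar macrophage markers that could be tested rose (Chil3, Ear2 and Car4, list sum 3.07 to 5.02 and 13.3 to 23.0 CPM). Chil3 had a mean of 0.0298 CPM in control muscle. A gene so low can pass the low-count filter through the tumour-bearing libraries alone, which favours a rise. The count of 3 rises is therefore no support by itself. Car4, with means of 3.62 and 8.01 CPM, made up most of the control sum. Siglecf was at 0 in every muscle library, and Marco and Plet1 were too low to test. Of 5 mast cell and basophil markers tested 2 fell (Cma1 and Mcpt4, list sum 17.8 to 23.7 and 8.00 to 13.9 CPM), and of 11 macrophage and monocyte markers Cd68 alone was called, higher. The part of these shifts in the muscle values was not tested.

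**Figure D2:**
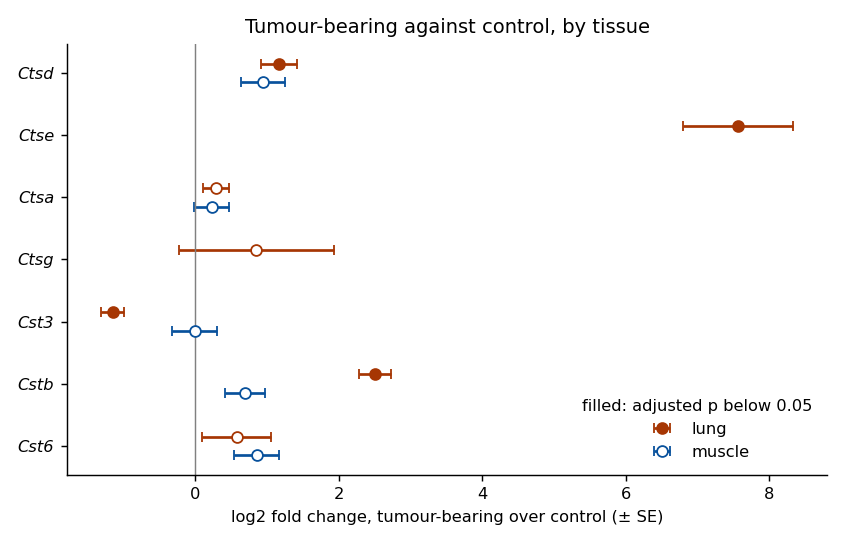
Log2 fold change of tumour-bearing over control for each gene, with standard errors, in lung and in muscle, where filled points passed the threshold. In lung Ctse stood at 7.56, Cstb at 2.499, Ctsd at 1.17 and Cst3 at -1.15, and no muscle point is filled.

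Ctsd (ENSMUSG00000007891) encodes cathepsin D, the main aspartic endopeptidase of lysosomes. In lung its 3 control values were 434, 449 and 459 CPM, and the 5 tumour-bearing values were 760, 752, 960, 1127 and 1438 CPM. All 5 lay above all 3 controls. Cathepsin D RNA rose 2.25-fold (log2 change 1.17, SE 0.25, adjusted p = 0.00321), where 30.9% of all lung genes tested had groups that did not overlap and were higher, and 63% had groups that did not overlap in either direction. On log2(TPM + 1) the change was 0.70, still past the threshold (adjusted p = 0.0126). In muscle the control values were 543, 455 and 416 CPM and the tumour-bearing values 1189, 731 and 804 CPM. These groups did not overlap either, as for 21.1% of muscle genes in the higher direction, 22% in the lower and 43.1% in either, and the 1.93-fold difference missed the threshold (log2 change 0.95, SE 0.31, adjusted p = 0.0646). It passed in DESeq2 (adjusted p = 0.0143), with no filter (0.0487), in 1 fit of all libraries (0.0449), with the replicate number as a block (0.0463) and without tumour-bearing 2 (0.0363), over a range of adjusted p from 0.0143 to 0.271 in the 14 alternatives. Per length the muscle groups overlapped, with 302, 174 and 120 TPM in controls and 630, 331 and 231 TPM in tumour-bearing libraries.

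Ctsa (ENSMUSG00000017760) encodes cathepsin A, the serine carboxypeptidase known as protective protein, which holds the sialidase Neu1 and the beta-galactosidase Glb1 in a complex. Lung controls had 116, 119 and 110 CPM, and tumour-bearing libraries 146, 94.9, 154, 152 and 158 CPM. Of the latter, 4 lay above all controls and tumour-bearing 2 lay below them, and the difference did not pass (log2 change 0.29, SE 0.18, adjusted p = 0.196). Without tumour-bearing 2 it passed (0.43, adjusted p = 0.0103), and on log2(TPM + 1) it had the opposite sign (-0.33, adjusted p = 0.163). The effective length that divides the counts was 1549 ± 53.0 bases in control and 1735 ± 101 in tumour-bearing lung (SD, n = 3 and 5, exact two-sided permutation p = 0.0536, 0.2 after Benjamini-Hochberg adjustment over 12 such tests). In muscle Ctsa had 59.0, 67.1 and 72.6 CPM in controls and 82.7, 68.7 and 81.2 CPM in tumour-bearing libraries, and the groups overlapped (log2 change 0.23, SE 0.24, adjusted p = 0.519). In the GENCODE M21 annotation the gene overlaps Neurl2 and Pltp on the opposite strand. Pltp, phospholipid transfer protein, had a mean of 490.5 CPM in control lung and 6.92 CPM in tumour-bearing lung, and since the strand setting of the counting is not given, its part in the Ctsa values was not tested.

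Ctsd and Ctsa are classical members of the lysosomal gene set whose promoters carry the E-box that TFEB and its relatives bind. Their windows from 250 bases before to 50 after the start are shown because the same 6 letters, CACGTG in capitals, occur in both, while RNA of Ctsd rose in lung and that of Ctsa did not pass. Sequences come from RefSeq, build GRCm38.p6, which matched 4 of 7 members. The Ctsd window is chr7:142387778-142388077 on the minus strand, and the Ctsa window is chr2:164833523-164833822 on the plus strand.
Ctsd: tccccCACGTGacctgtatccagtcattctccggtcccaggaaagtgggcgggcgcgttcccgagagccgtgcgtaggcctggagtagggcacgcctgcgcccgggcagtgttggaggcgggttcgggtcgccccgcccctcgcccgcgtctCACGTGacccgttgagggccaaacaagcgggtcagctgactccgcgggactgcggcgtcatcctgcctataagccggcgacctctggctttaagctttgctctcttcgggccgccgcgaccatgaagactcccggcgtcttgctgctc
Ctsa: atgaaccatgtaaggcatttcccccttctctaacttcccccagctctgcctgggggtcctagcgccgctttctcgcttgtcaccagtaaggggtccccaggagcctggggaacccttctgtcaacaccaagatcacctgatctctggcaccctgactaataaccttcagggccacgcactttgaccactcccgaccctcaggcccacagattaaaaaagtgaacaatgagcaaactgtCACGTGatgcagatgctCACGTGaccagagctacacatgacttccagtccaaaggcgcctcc
Each window holds CACGTG at 2 places, which reads the same on both strands. The motif begins at -245 and -98 in Ctsd and at -12 and 5 in Ctsa, counted from the first base after the 250 upstream. Of 32851 promoter windows of this length 7.15% hold CACGTG, and 0.974% hold the longer TCACGTGA, which contains it and occurs 1 time in the Ctsd window and 2 times in the Ctsa window. A second Ctsa window and those of Ctsg and Cst3 hold no CACGTG, and a match describes letters only.

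Ctse (ENSMUSG00000004552) encodes cathepsin E, an aspartic protease of endosomes that is known from the surface epithelium of the stomach and from immune cells. In lung its control values were 0.716, 1.21 and 1.33 CPM, from 44, 72 and 73 counts. Tumour-bearing libraries had 117, 144, 78.0, 238 and 448 CPM, from 4576 to 18304 counts. Every tumour-bearing library lay far above every control, a rise of 189-fold (log2 change 7.56, SE 0.76, adjusted p = 5.1e-05), where 30.9% of lung genes had groups that did not overlap and were higher. Cathepsin E made up 0.183% ± 0.0537 of the summed TPM of the 4 proteases in control lung and 14.1% ± 5.69 in tumour-bearing lung (SD, n = 3 and 5). In muscle it had 0, 1 and 2 counts in controls and 5, 0 and 13 in tumour-bearing libraries, too few to test.

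Epithelial markers moved beside Ctse in lung. Summed, 9 stomach and gut epithelium markers had 11.3 to 11.9 CPM in control lung and 611 to 1666 CPM in tumour-bearing lung. Of the 9, 7 were called higher, where 30.4% of all lung genes tested were. Among them Tff1, Gkn1, Gkn2 and Cdx2 had control means of 0.0289, 0.00542, 0.0442 and 0.00561 CPM. Genes so low in controls can pass the low-count filter through the tumour-bearing libraries alone, which favours rises. The count of rises is therefore no support by itself. By mean, Lgals4 (569 CPM), Vil1 (191.7 CPM) and Hnf4a (189.2 CPM) made up most of the sum in tumour-bearing lung. Tff1 was called higher but ran from 0.682 to 297.5 CPM over the tumour-bearing libraries. Tff2 ran from 0.0489 to 113.4 CPM there and did not pass (adjusted p = 0.14). The gastrokine Gkn2 rose from 0.0442 to 14.95 CPM on average, and the gastric mucin Muc5ac had 1.77 and 2.74 CPM (adjusted p = 0.620). A list of 7 squamous epithelium markers summed to 4.52 to 5.59 CPM in controls and to 92.3 to 671 CPM in tumour-bearing lung. Of these 4 were called higher, among them Krt6a with a control mean of 0.0227 CPM, so the same limit holds. The 6 alveolar type 2 markers all fell, their sum standing at 21386 to 23335 CPM in controls and at 122 to 1072 CPM in tumour-bearing lung. The part of these shifts in the Ctse, Ctsd, Cstb and Cst3 results was not tested. Another aspartic protease, Napsa, which processes surfactant protein in alveolar type 2 cells, had 329.7 ± 19.7 CPM in control and 27.4 ± 14.9 CPM in tumour-bearing lung, a fall opposite to Ctse and Ctsd (log2 change -3.59, SE 0.44, adjusted p = 0.000145). Of 5 other pepsin-like aspartic proteases tested in lung 2 rose and 2 fell, where 59.7% of all genes were called. Their median log2 change was 0.20 beside 0.07 for all genes. Pgc, the gastric protease progastricsin, was among those that fell, from 1.77 to 0.0293 CPM. In muscle 3 of 8 were tested and none passed. Napsa had 0.157 and 0.821 CPM (adjusted p = 0.0658) and passed in 5 of 13 alternatives (0.00679 to 0.166 over all 13), DESeq2 among them. Bace2 had 2.36 and 0.883 CPM (adjusted p = 0.0668) and passed in 4 of 14 (0.0264 to 0.251 over all 14).

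**Figure D3:**
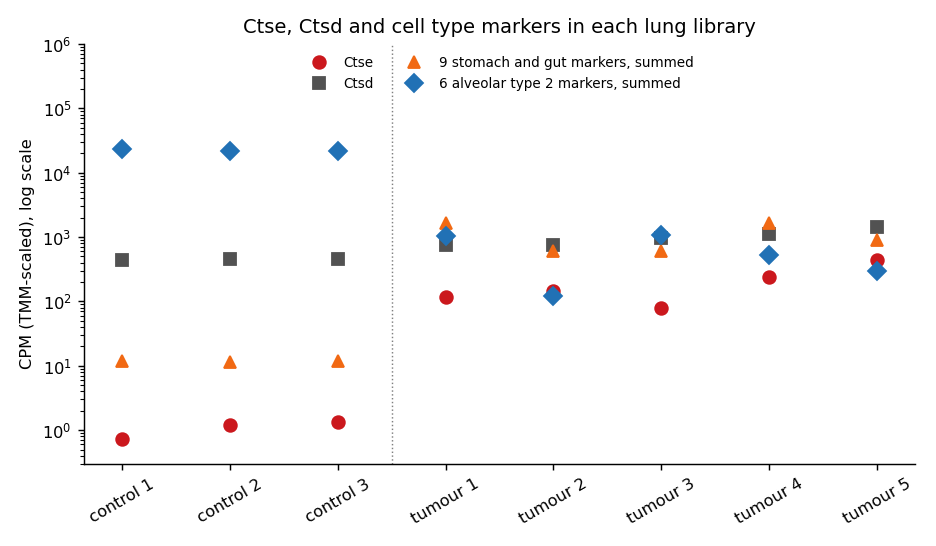
Ctse, Ctsd and summed cell type markers in each of the 8 lung libraries, as TMM-scaled CPM on a log axis, with controls left of the dotted line. Ctse moved from 0.716 to 1.33 CPM in controls to 78.0 to 448 CPM. Stomach and gut markers, by mean mostly Lgals4, Vil1 and Hnf4a, rose to 611 to 1666 CPM. Alveolar type 2 markers fell to 122 to 1072 CPM.

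Ctsg (ENSMUSG00000040314) encodes cathepsin G, a serine protease stored in the primary granules of neutrophils. Lung controls held 7, 13 and 14 counts, or 0.114, 0.219 and 0.254 CPM. Tumour-bearing lung held 0, 39, 43, 4 and 7 counts, or 0, 0.774, 0.733, 0.0828 and 0.171 CPM. Of the 5 tumour-bearing libraries 2 lay above all controls and 2 below them, and no difference was detectable at this depth (log2 change 0.85, SE 1.08, adjusted p = 0.521). The 4 other primary granule markers summed to 1.04 to 3.77 CPM in control and 0.196 to 2.68 CPM in tumour-bearing lung. Of the 2 that could be tested Mpo, myeloperoxidase, fell (log2 change -3.56, SE 0.87, adjusted p = 0.0065). Neutrophil markers outside the primary granule summed to 59.7 to 120 CPM in control and 68.3 to 187 CPM in tumour-bearing lung. Of these 7 markers 2 were called higher and 1 lower, where 30.4% of all lung genes were called higher and 29.3% lower. Of 9 mast cell and basophil markers 6 were tested in lung. Kit, which made up nearly all of their sum in controls, fell from a mean of 156.1 to 6.21 CPM (adjusted p = 0.000133). Cma1, Cpa3 and Tpsb2 had control means of only 0.771, 0.310 and 0.223 CPM, so that sum is no measure of mast cells. The basophil protease Mcpt8 rose from 0.261 to 48.7 CPM (adjusted p = 0.000278), and the other 4 did not pass. Of the untested, Fcer1a (0.0976 to 0.0338 CPM) and Ms4a2 (0.252 to 0.0145 CPM) were lower by mean and Tpsab1 (0.0227 to 0.124 CPM) higher. Mcpt8 alone does not stand for basophils. The part of these cells in the Ctsg values was not tested. In muscle Ctsg, Elane, Mpo and Ms4a3 were at 0 in every library. Of 7 neutrophil markers 4 were tested there and rose, from control means of 0.101 (Retnlg) to 0.521 CPM (Il1r2). Genes so low in controls can pass the low-count filter through the tumour-bearing libraries alone, which favours rises, so this count is no support. Ly6g was at 0 in every muscle library. The list summed to 0.752 to 1.79 CPM in controls and to 5.74 to 7.22 CPM in tumour-bearing muscle.

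Among 5 inhibitors of granule serine proteases (4 serpins and Slpi), Serpina3n differed between the tissues. In muscle 1 of 3 tested was called: Serpina3n, an inhibitor of chymotrypsin-like proteases and an acute phase gene, went up 21.7-fold, from 1.65 ± 0.752 to 35.5 ± 27.0 CPM (adjusted p = 0.0152; log2 change 4.44, SE 0.82), a call lost without any of the 3 controls. In lung Serpina3n had 128.6 ± 7.62 CPM in controls and fell to 22.6 ± 13.3 CPM (-2.51, SE 0.38, adjusted p = 0.000472), and the difference between the tissues passed (-6.93, adjusted p = 6.78e-05). Serpinb6a rose in lung from 140.5 ± 6.27 to 765.1 ± 298.7 CPM. Serpina1b rose there from 0.291 to 454.4 CPM, a value that is uncertain because the Serpina1 genes are near-identical copies between which counting can split reads. In all, 3 of 5 inhibitors rose and 1 fell in lung, where 59.7% of all genes were called, and Slpi did not pass (adjusted p = 0.279).

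Cst3 (ENSMUSG00000027447) encodes cystatin C, a secreted inhibitor of cysteine cathepsins made by most tissues. In lung the controls had 559, 528 and 539 CPM and the tumour-bearing libraries 258, 253, 287, 229 and 194 CPM. All 5 lay below all 3 controls, as for 32.1% of lung genes in that direction, and cystatin C fell 2.22-fold (log2 change -1.15, SE 0.16, adjusted p = 0.000288). In muscle the controls lay within 316 and 323 CPM, while tumour-bearing libraries had 213, 299 and 436 CPM. The muscle groups overlapped and their means were alike, with the tumour-bearing libraries spread on both sides of the controls (log2 change -0.01, SE 0.31, adjusted p = 0.986), a sign that turns under several settings.

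Cstb (ENSMUSG00000005054) encodes cystatin B, a stefin that stays in the cytosol and nucleus. Lung controls had 36.6, 38.5 and 39.4 CPM and tumour-bearing libraries 149, 220, 198, 226 and 284 CPM. The groups did not overlap, as for 30.9% of lung genes in the higher direction, and cystatin B rose 5.65-fold (log2 change 2.499, SE 0.22, adjusted p = 2.63e-05). In muscle the controls had 5.74, 6.77 and 6.65 CPM and the tumour-bearing libraries 11.8, 8.05 and 11.2 CPM. These did not overlap either, as for 21.1% of muscle genes in the higher direction and 43.1% in either. The 1.62-fold difference did not pass (log2 change 0.69, SE 0.27, adjusted p = 0.105) except without tumour-bearing 2 (0.87, adjusted p = 0.0337), with adjusted p from 0.0337 to 0.314 over the 14 alternatives.

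The opposite changes of Cst3 and Cstb altered the make-up of cystatin RNA in lung. In control lung Cstb was 0.107 to 0.121 times the TPM of Cst3, and in tumour-bearing lung 0.925 to 2.40 times. Cystatin B thus went from 10.3% ± 0.618 to 58.4% ± 8.60 of the summed TPM of the 3 cystatins, and cystatin C from 89.6% ± 0.615 to 41.6% ± 8.58 (SD, n = 3 and 5). The cystatin sum was 1319 ± 58.1 TPM in control and 948 ± 90.3 TPM in tumour-bearing lung, and the sum of the 4 proteases 444 ± 4.70 and 757 ± 206 TPM. In muscle the ratio of Cstb to Cst3 was 0.0297 to 0.0352 in controls and 0.0422 to 0.0911 in tumour-bearing libraries. Among the tumour-bearing lung libraries, the fifth was highest in Ctse, Ctsd and Cstb and lowest in Cst3, and the third was lowest in Ctse and highest in Cst3.

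**Figure D4:**
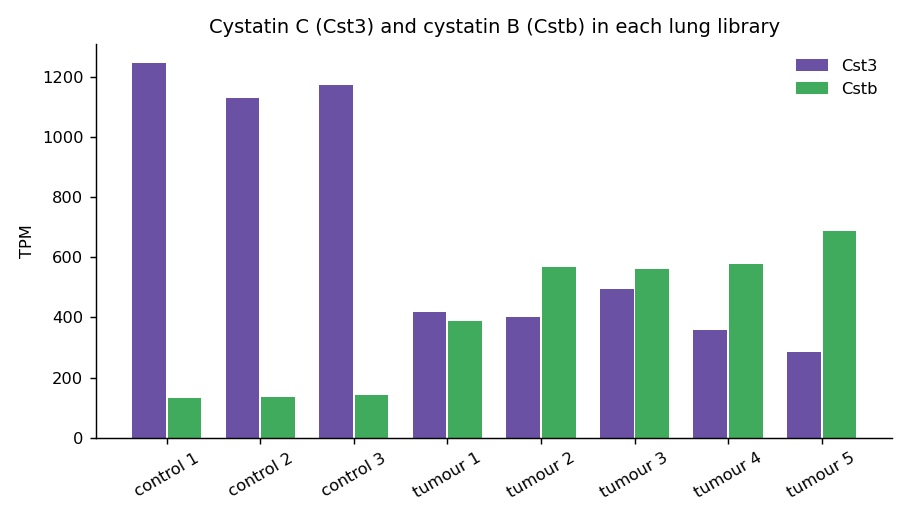
Cst3 and Cstb in each of the 8 lung libraries, as bars in TPM from 0. Cst3 stood about an order of magnitude above Cstb in each control (1129 to 1246 against 133 to 141 TPM), while in tumour-bearing libraries Cst3 had 286 to 495 TPM and Cstb 387 to 688 TPM.

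Cst6 (ENSMUSG00000024846) encodes cystatin M/E, a secreted inhibitor of legumain and cathepsin L that is best known from skin. It was a gene of muscle here: control muscle had 97.1 to 126 TPM and control lung 0.4 to 0.79 TPM. In the fit of all libraries the log2 difference of control lung from control muscle was -9.48 (SE 0.47, adjusted p = 3.43e-09), in a comparison that called 62.5% of genes, 37.9% higher and 24.6% lower in lung. In muscle the controls had 36.6, 43.5 and 47.7 CPM and tumour-bearing libraries 51.02, 76.5 and 104 CPM. All 3 tumour-bearing libraries lay above the controls, as for 21.1% of muscle genes, and the 1.81-fold difference missed the threshold (log2 change 0.86, SE 0.31, adjusted p = 0.0863). It passed in DESeq2 (adjusted p = 0.042) and without tumour-bearing 1 (0.0307), and on log2(TPM + 1) it shrank to 0.29 (adjusted p = 0.702). Over the 14 alternatives adjusted p ran from 0.0307 to 0.702. In lung 5 to 23 counts per library showed no detectable difference (log2 change 0.58, SE 0.48, adjusted p = 0.325).

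The gap between the count and TPM values of Cst6 came with a change in effective length, the mean length over the gene's transcripts, weighted by their estimated abundance, that divides the counts. It was 288, 274 and 249 bases in control muscle and 535, 392 and 352 bases in tumour-bearing muscle. The groups, 270 ± 19.8 and 426 ± 96.1 bases (SD, n = 3 each), did not overlap (exact two-sided permutation p = 0.1, the smallest that 3 against 3 allow, and 0.2 after adjustment over 12 such tests). The deposited tables list 3 Cst6 transcripts, which in GENCODE M21 are protein-coding models of 3951 and 432 bases and a retained-intron model of 376 bases. How reads were split between them was not tested.

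**Figure D5:**
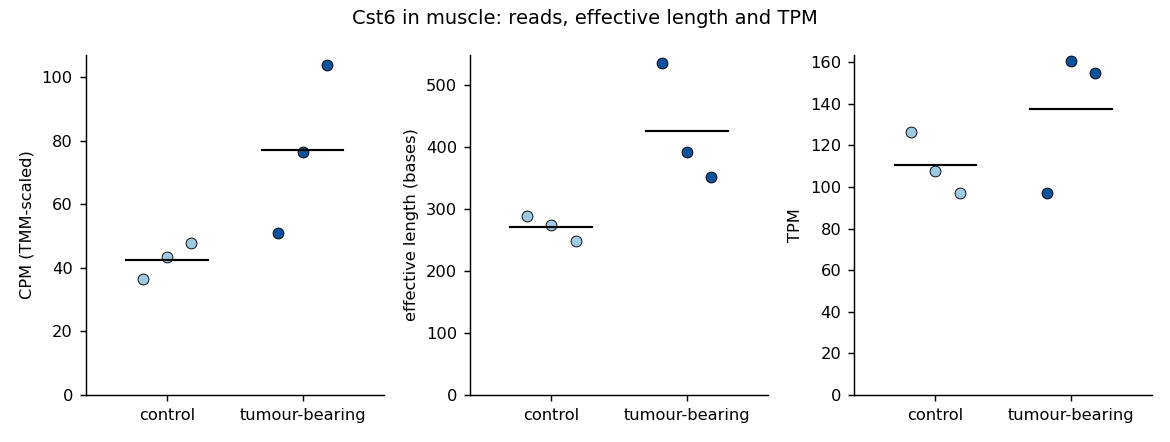
Cst6 in the 6 muscle libraries as TMM-scaled CPM, effective length in bases and TPM, with points for libraries and lines for means. CPM and effective length are higher in all 3 tumour-bearing libraries, and TPM overlaps (97.1 to 126 against 97.0 to 160 TPM).

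Control lung and control muscle were also compared for the other members. Cstb (log2 difference lung minus muscle 1.08, SE 0.23, adjusted p = 0.000795) and Ctse (3.68, SE 1.23, adjusted p = 0.0177) were higher in lung by counts, the Ctse call being lost without muscle control 1 (adjusted p = 0.0829) or 2 (0.0513) and on log2(TPM + 1) (0.0901). Ctsd (-1.58), Ctsa (-0.70) and Cst3 (-0.73) were lower in lung by counts and higher on log2(TPM + 1) (0.86, 2.34 and 1.81), so no direction holds for these 3. In that comparison the median of all genes was 0.51 by counts and 1.47 in TPM. By counts 6 of 7 members were called, these 3 among them, where 62.5% of all genes were.

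Among the cysteine cathepsins, which the cystatins inhibit, calls went both ways in both tissues. They were less frequent than among all genes in lung, and somewhat more frequent in muscle, where few were tested. In muscle 1 of 10 tested rose and 1 fell, with a median log2 change of -0.04, beside 15.3% of all muscle genes called. Ctsl, cathepsin L, rose 6.10-fold, with 36.4 ± 6.56 CPM in controls and 222.4 ± 188.5 CPM in tumour-bearing muscle (log2 change 2.61, SE 0.57, adjusted p = 0.0233), with single tumour-bearing libraries from 76.2 to 435.1 CPM. Ctsl no longer passed in 4 of 14 alternatives, namely on log2(TPM + 1) and with control 1, 2 or 3 left out, and leaving out tumour-bearing 1 brought its log2 change to 1.69. Ctso fell from 5.40 to 2.49 CPM (adjusted p = 0.0484), a call lost in 6 of 14 alternatives. In lung 2 of 11 rose and 2 fell, with a median of -0.17, beside 59.7% of all lung genes called. Ctsl rose from 153.4 ± 4.87 to 449.3 ± 204.2 CPM (adjusted p = 0.0044), Ctsz rose by 0.85 and Ctsf fell by 2.49 on the log2 scale, and Ctso fell from 48.5 to 20.5 CPM. Legumain, the target of Cst6, was at 12.3 and 10.2 CPM in muscle and at 97.3 and 80.9 CPM in lung and did not pass (Lgmn, adjusted p = 0.646 and 0.240). Set per length against its inhibitor, Ctsl was 0.149 to 0.157 times Cst3 in control lung and 0.406 to 1.88 times in tumour-bearing lung. In muscle that ratio was 0.0318 to 0.0479 in controls, and 0.0912, 0.132 and 1.74 in the tumour-bearing libraries, so 1 library stood far above the other two. Of 20 other cystatin superfamily genes 17 were found. Only Fetub could be tested in muscle (adjusted p = 0.144), and of 6 tested in lung Cst8 fell (log2 change -6.87) and the stefin Stfa2l1 rose (1.77, adjusted p = 0.0129), a call lost with the replicate block (0.0520) and without control 3 (0.0619).

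Ctsa passed in neither tissue, and Neu1 in both. Neu1, the sialidase that needs cathepsin A for its activity, rose in lung from 25.8 ± 0.0934 to 81.2 ± 19.6 CPM (SD, n = 3 and 5; log2 change 1.65, SE 0.22, adjusted p = 0.000237) and in muscle from 8.09 ± 0.962 to 18.7 ± 6.54 CPM (SD, n = 3 each; 1.21, SE 0.32, adjusted p = 0.0379). The muscle call was lost in 7 of 14 alternatives, among them without any 1 control. Galns, a sulfatase that has been found in the same complex, rose in lung (2.54, SE 0.23, adjusted p = 2.62e-05). Of 7 such partners and lysosomal serine peptidases 4 rose and 2 fell in lung (median 0.78), where 59.7% of all genes were called. In muscle 1 rose (median 0.26 beside -0.03 for all genes), where 15.3% of all genes were called and Glb1 (adjusted p = 0.116) and Galns (0.660) did not pass.

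Of 13 genes that sort lysosomal enzymes or regulate their genes, 1 rose and 6 fell in lung (median log2 change -0.55), and in muscle 2 rose and the other 11 did not pass (median 0.45). Beside 59.7% of all genes called in lung and 15.3% in muscle, these counts do not set the list apart. Tfeb, a transcription factor of lysosomal genes, fell in lung 2.52-fold, from 19.9 ± 0.767 to 7.91 ± 0.438 CPM (as log2 -1.33, SE 0.16, adjusted p = 0.000114) and rose in muscle from 50.04 ± 3.74 to 104.8 ± 31.5 CPM (1.07, SE 0.30, adjusted p = 0.0435). The difference between the tissues passed for Tfeb (-2.41, adjusted p = 3.19e-05). Scarb2, the receptor that carries glucocerebrosidase to lysosomes, fell in lung (-2.44, SE 0.15, adjusted p = 3.81e-06), and Gnptg, a subunit of the enzyme that makes the mannose phosphate tag, rose in muscle (0.89, SE 0.26, adjusted p = 0.0485). The muscle calls of Tfeb and Gnptg were each lost in 8 of 14 alternatives, without any 1 control among them.

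The genes whose log2 CPM followed a member most closely were ranked over the 8 lung libraries (11504 genes) and the 6 muscle libraries (7716 genes), libraries that share the tumour contrast. In lung Ctse was nearest to Rpl41 and the glycolytic enzyme gene Tpi1 (Pearson r 0.998 each), Cstb to the glycolytic Eno1 and to Plp2 (0.999 each), Ctsd to Entpd7 (0.996) and Bco1 (0.995), and Cst3 to Clec1a (0.999) and Ptger4 (0.998). Ctsa was nearest to Mtpap (0.986) and Dctn4 (0.983), Cst6 to Scamp3 and Grpel2 (0.945 each), and Ctsg to Hcfc1 (0.946) and Map3k7 (0.940). In muscle Ctsd was nearest to Bub3 and Polr3e (0.998 each), Cstb to Zrsr2 (0.997) and Hsf4 (0.995), Cst6 to Prodh (0.995) and Rpl23 (0.994), Cst3 to Acad8 (0.993) and U2af1l4 (0.991), and Ctsa to Arhgdia (0.986) and Safb2 (0.985). None of these genes was named for a member in both tissues.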

How the data were processed

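RNA libraries made with a directional kit (MGIEasy RNA Directional, read length 100) are the source of the data; the submitters' processing notes name RSEM 1.3.3, STAR 2.7.9a and Trim Galore. No source used here gives their settings, the strand option, the genome build or the annotation. The deposited tables hold expected counts per gene (RSEM estimates, which share reads between genes and transcripts), TPM and effective length in bases for each library. The authors' TPM divides by an effective length that differs between libraries.

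Expected counts were rounded and tested with edgeR 4.0.16 (quasi-likelihood test, TMM scaling, filterByExpr, two-sided, Benjamini-Hochberg over all genes tested, threshold 0.05) in R 4.3.3, each tissue alone. Differences between tissues used 1 fit of 14 libraries with 4 group means. The standard error is the size of the log2 change divided by the square root of F. Gene symbols matched 94.0% of 55416 identifiers. The fits were tested on simulated data. Alternatives were RLE and upper-quartile scaling, DESeq2 1.42.0, a low-count filter at a mean of 1 CPM, none at all, limma 3.58.1 on log2(TPM + 1), 1 fit of all libraries, the replicate number as a block, and each library left out in turn.

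The members, 6 pathway lists and 16 marker lists were chosen with earlier results of these data known. All members are named, with the 2 genes nearest to each in a tissue by Pearson r of log2 CPM (prior count 2, mean of at least 5 CPM, clones and predicted genes left out) and the 2 genes of smallest p in each pathway list and tissue. Other genes of these lists (Ctsl and Ctso in lung, Lgmn, Serpina3n in lung) and marker genes given by name were chosen after their values were seen. Each pair of replicates differed by more than sampling noise (chi-square per degree of freedom 21.3 to 480). Marker lists not described elsewhere summed, in control and tumour-bearing lung, to 516 to 1343 and 199 to 1383 CPM for alveolar macrophages (1 of 6 higher, 3 lower), 15.0 to 21.5 and 1.32 to 17.7 for T cells, 28.7 to 58.0 and 0.832 to 6.04 for B cells, 2744 to 3182 and 10.3 to 172 for alveolar type 1 cells, 20127 to 23767 and 26.6 to 950 for airway cells, 2067 to 2207 and 91.4 to 119 for endothelium, 1160 to 1215 and 411 to 1441 for fibroblasts (2 of 5 lower) and 3030 to 4341 and 78.0 to 970 for red cells. Macrophage and monocyte markers summed to 4911 to 5085 and 412 to 1006 CPM, of which Lyz2 made up a mean of 4685 and 302.3 CPM. Of the 11, Mrc1 rose (log2 change 1.23), Lyz2, Csf1r, Adgre1 and Ccr2 fell and 6 did not pass. Beside these lung lists, 30.4% of all lung genes tested were called higher and 29.3% lower. In muscle, fibre markers summed to 78551 to 86788 CPM in controls and 60268 to 109497 CPM in tumour-bearing libraries, and red cell markers to 236 to 413 and 309 to 5472 CPM, with no gene of either list called.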

Additional observations from a re-analysis of the deposited data

Results flagged for a closer look

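The tumour effect on Cstb differed between the tissues: lung minus muscle was 1.81 on the log2 scale (SE 0.30, edgeR adjusted p = 0.000451). The change was 2.499 in lung, where 5 of 5 libraries lay above the controls, as for 30.9% of lung genes. It was 0.69 in muscle, where 3 of 3 did, as for 21.1% of muscle genes. The tumour effect on Cst3 also differed, by -1.14 (SE 0.33, adjusted p = 0.0147), from -1.15 in lung and -0.01 in muscle. Both differences passed in all 20 alternatives run, with ranges of 1.203 to 1.92 for Cstb and -1.69 to -0.88 for Cst3.

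Ctsa in tumour-bearing lung 2, at 94.9 CPM, lay far below the other 4 tumour-bearing libraries (146 to 158 CPM). The effective length of Cst6 was 1299 bases in the same library against 207 to 444 bases in the other 4, from 5 counts. Chance alone sets a sample apart in this way in about 1 in 20 groups.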

How the results depend on the processing

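Muscle results moved with the processing and lung results less so. No muscle member passed in edgeR (3 at an unadjusted p below 0.05), against 2 in DESeq2 and 1 each with no filter, in 1 fit of all libraries and with the replicate block, and 0 to 2 on leaving out 1 library (1 without tumour-bearing 1 and 2 without tumour-bearing 2). Of all muscle genes 2196 passed, against 3657 in DESeq2, 4031 with no filter, 415 with limma on TPM, 3459 in 1 fit and 3303 with the replicate block, and 106 to 4513 without 1 library (controls 1 to 3 left out gave 243, 141 and 106, tumour-bearing 1 to 3 gave 1432, 4513 and 1129). Whether replicate numbers pair the samples could not be settled. Same-numbered libraries had correlations of 0.356, -0.046 and 0.366 in muscle and 0.037, 0.058 and -0.00083 in lung. In each tissue 2 of 3 controls correlated best with their own number. Muscle control 1 had -0.405 with tumour-bearing 3, and control 3 had -0.345 with tumour-bearing 1. Signs turned for Ctsa in muscle under upper-quartile scaling (-0.0063), where all genes had a median of -0.25, and for Cst3 in muscle (0.018 with RLE, 0.018 in DESeq2, 0.021 with no filter, 0.0803 on TPM, and -0.303 to 0.227 on leaving out 1 library, with 0.227 without tumour-bearing 1 and 0.048 without tumour-bearing 2). On log2(TPM + 1) signs turned for Ctsa in lung (-0.33), for the tissue difference of Ctsa (-0.77) and Ctsd (-0.27), and between control tissues for Ctsa (2.34), Ctsd (0.86) and Cst3 (1.81); the cause was not tested. Higher and lower calls were 1226 and 970 in muscle, but 760 and 1079 with upper-quartile scaling and 157 and 258 on TPM. On TPM they were 3594 and 7994 in lung (5862 and 5651 by counts), 2401 and 6624 for the tissue difference (3287 and 3770) and 14899 and 1243 between control tissues (7516 and 4881). The lung calls of Ctsd (0.70 to 1.28), Ctse (5.76 to 7.77), Cst3 (-1.61 to -1.03) and Cstb (1.998 to 2.63) passed in all 16 alternatives. Ctsg and Cst6 in lung rest on at most 43 and 23 counts per library.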
